A study of Mus musculus with 18 samples.

Results

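The Mint, Caskin and Lin7 genes encode scaffold proteins that hold membrane proteins in place at synapses and at epithelial cell borders. Their 8 members in the mouse, *Apba1*, *Apba2*, *Apba3*, *Caskin1*, *Caskin2*, *Lin7a*, *Lin7b* and *Lin7c*, were taken by gene symbol from 52091 genes listed in either of 2 count tables, and all 8 were listed in both. The family was singled out because *Apba2* was far higher and *Caskin1* far lower in mutant fibroblasts, so the values of the 8 genes in fibroblasts are given below as a description without a test.

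The study asked what the B repeat of *Xist*, the noncoding RNA that silences one X chromosome in female mammals, does for X inactivation and gene expression in the mouse. RNA-seq was available here for 12 libraries, with 3 libraries for each of RepB-/- MEFs, WT MEFs, RepB-/- liver and WT liver. By the study's description, RepB-/- mice were females with a CRISPR/Cas9 deletion of *Xist* repeat B on both X chromosomes. They came from hemizygous males crossed with heterozygous females. WT samples carried intact *Xist*, and no group received another allele or agent. MEFs are fibroblasts grown from embryos, and the study's methods name primary MEFs, grown in DMEM with serum, as the RNA source. Its results also speak of tail and ear fibroblasts where X-linked expression is compared. The library labels name the tissue of the MEF samples "Tail" beside a primary MEF cell line, and they do not say whether the 3 libraries of a group came from separate embryos or animals, so that p-values measure the spread between these libraries alone. The age of the animals was not given in the sources used here.

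Library depth was between 20005541 and 20587556 counts in RepB-/- MEFs and between 11540344 and 16347806 in WT MEFs. It was between 37682201 and 51542709 counts in liver. Depth in MEFs thus lay apart by genotype, and its part in the differences below was not tested. The fibroblast markers *Col1a1*, *Col1a2*, *Col3a1*, *Pdgfra*, *Thy1* and *Dcn* summed to between 1266 and 2042 FPKM in every MEF library, and hepatocyte markers to between 56560 and 81010 FPKM in every liver library. In liver, RepB-/- replicate 2 stood apart with 4 counts of *Xist* and 4342 counts of Y-linked genes (*Uty*, *Kdm5d*, *Ddx3y* and *Eif2s3y* summed), where each other liver had 1 or 0 Y-linked counts. These are the counts of a male, so a deletion on both X chromosomes cannot hold for this library. It was kept in its labelled group. The livers numbered 1 in both genotypes stood apart by *Afp*, a fetal liver gene, at 507 CPM in RepB-/- and 369 CPM in WT against 2.79 to 6.04 CPM in the other 4. The MEF table used here has no row for *Xist*, and its Y-linked counts were between 0 and 4 a library.

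Mint proteins carry a phosphotyrosine-binding domain and a pair of PDZ domains and bind the cytoplasmic tail of the amyloid precursor protein. Mint1, the product of *Apba1*, joins Cask and a Lin7 protein in a complex of 3 scaffolds that links adhesion molecules and channels to vesicle release in neurons. Mint1 and Mint2, the product of *Apba2*, are mainly neuronal, whereas Mint3, the product of *Apba3*, is found in most tissues. Caskin1 is a neuronal ankyrin-repeat protein that competes with Mint1 for Cask, and Lin7 proteins pair with Cask through L27 domains. All 8 genes are autosomal, on chromosomes 2, 7, 10, 11, 17 and 19, while *Cask* itself is X-linked.

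The promoters of the 3 Mint genes are shown because one of them, *Apba2*, carried the largest difference and its neighbour in function, *Apba3*, carried nearly none. Each window spans 250 bases before to 50 after an annotated start in RefSeq (GRCm38.p6), is written 5′ to 3′ on the strand of the gene, here the plus strand, and has every CG dinucleotide in capitals. CG was counted on one strand, since it reads the same on both, and overlaps no other motif searched. Windows were found for 6 of the 8 genes, all but *Caskin1* and *Caskin2*.

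*Apba1*, chr19:23758626-23758925: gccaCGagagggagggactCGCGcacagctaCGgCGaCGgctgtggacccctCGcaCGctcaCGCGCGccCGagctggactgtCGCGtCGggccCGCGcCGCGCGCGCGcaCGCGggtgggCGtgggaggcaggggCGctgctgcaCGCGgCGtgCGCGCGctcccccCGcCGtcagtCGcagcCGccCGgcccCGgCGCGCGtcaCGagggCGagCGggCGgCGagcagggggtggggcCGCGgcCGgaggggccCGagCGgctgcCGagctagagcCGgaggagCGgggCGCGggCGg

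*Apba2*, first window, chr7:64501456-64501755: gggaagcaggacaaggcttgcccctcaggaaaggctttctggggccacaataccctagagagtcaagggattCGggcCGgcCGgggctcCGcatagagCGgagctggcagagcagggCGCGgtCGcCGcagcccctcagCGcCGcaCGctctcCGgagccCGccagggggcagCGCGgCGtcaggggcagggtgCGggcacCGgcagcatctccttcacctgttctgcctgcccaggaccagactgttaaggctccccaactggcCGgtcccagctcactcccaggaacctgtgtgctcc

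*Apba2*, second window, chr7:64501888-64502187: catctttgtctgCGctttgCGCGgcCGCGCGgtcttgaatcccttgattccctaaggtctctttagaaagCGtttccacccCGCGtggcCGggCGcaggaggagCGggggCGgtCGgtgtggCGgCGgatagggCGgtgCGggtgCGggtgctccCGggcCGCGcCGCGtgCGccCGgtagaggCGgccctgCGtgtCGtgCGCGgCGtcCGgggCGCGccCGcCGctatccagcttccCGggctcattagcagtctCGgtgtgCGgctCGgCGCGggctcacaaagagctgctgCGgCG

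*Apba3*, chr10:81267922-81268221: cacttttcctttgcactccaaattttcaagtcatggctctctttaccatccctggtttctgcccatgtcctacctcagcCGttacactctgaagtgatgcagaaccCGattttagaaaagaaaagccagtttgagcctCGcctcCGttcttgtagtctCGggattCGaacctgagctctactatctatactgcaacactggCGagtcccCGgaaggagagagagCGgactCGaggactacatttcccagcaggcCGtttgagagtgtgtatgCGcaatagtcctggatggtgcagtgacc

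The windows differed in how many CG dinucleotides they held. The *Apba1* window held 57, a number matched or passed by 0.152% of 32851 promoter windows of that length. The first *Apba2* window held 20 (matched or passed by 26.5%) and the second held 45 (1.93%). The *Apba3* window held 12 (39.6%). It lies at a start inside the gene, which begins at chr10:81266960 in the GRCm38 coordinates of the liver counts, so the 5′ end of the gene is not shown. At least 1 CG was present in 94.6% of all windows, with a median of 7. The other windows held 18 and 21 in *Lin7a*, 15 in *Lin7b* and 26 in *Lin7c*. These are counts of letters, and no chromatin data were used here.

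In MEFs the family was carried by 1 gene of each kind. Levels are compared between genes in FPKM, which divides counts by gene length and library size, as the mean ± SD of the 6 libraries of a tissue. *Apba3* was highest at 18.3 ± 1.53 FPKM, followed by *Lin7c* at 12.1 ± 0.864 and *Caskin2* at 8.91 ± 0.809, and the ranges of these 3 genes did not overlap. *Apba2* (1.88 ± 1.85) and *Apba1* (1.29 ± 0.229) came next with overlapping ranges. *Lin7b* (0.488 ± 0.292), *Caskin1* (0.294 ± 0.341) and *Lin7a* (0.0703 ± 0.0445) were lowest, and the ranges of neighbours in this order overlapped. The genotypes lay apart in *Apba2* and *Caskin1*, which widened the SDs of both. The SD of *Caskin1* also reflected the spread within WT, where replicate 1 was at 0.905 FPKM and the others at 0.346 and 0.396.

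**Figure D1:**
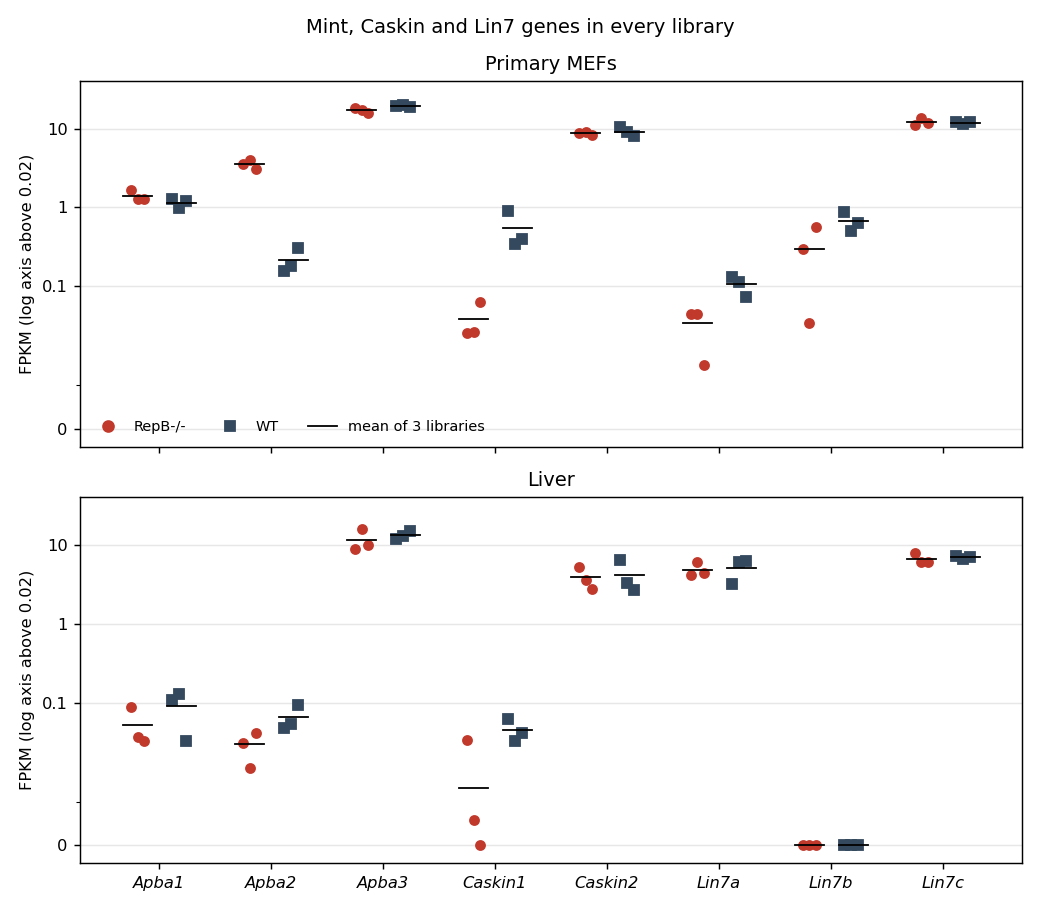
FPKM of each gene (log axis above 0.02 FPKM, with 0 shown) in the 3 RepB-/- (circles) and 3 WT (squares) libraries of MEFs, top, and liver, bottom, with a line at the mean of 3 libraries. In MEFs, *Apba2* lies between 3.05 and 3.99 in RepB-/- against 0.159 to 0.304 in WT, *Caskin1* lies lower in RepB-/-, and *Lin7b* is at 0 in every liver.

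*Apba2* was the member that differed most in MEFs. It had 281, 305 and 240 counts in the RepB-/- libraries and 7, 11 and 19 counts in the WT libraries. Every RepB-/- library was thus above every WT library, and the WT libraries held few reads. Scaled by TMM-adjusted library size, the level was 14.1 ± 1.81 CPM in RepB-/- and 0.790 ± 0.299 CPM in WT (SD, n = 3 each), a ratio of 17.8. The log2 fold change was 4.11 with an SE of 0.24, the highest of the 13306 genes tested in that fit, and under the 10 alternatives it lay between 3.94 and 4.48 with a rank between 1 and 13. As background, 19.4% of the tested genes were called higher and 26.4% were above WT without overlap, and nothing is read from the member count because the same contrast chose the genes. In GRCm39 coordinates the gene lies at chr7:64151454-64403626 on the plus strand.

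The other Mint genes were closer to WT in level. *Apba1* had 238, 177 and 181 counts in RepB-/- and 102, 108 and 136 in WT MEFs, which is 10.1 ± 1.72 against 7.65 ± 0.839 CPM. Its libraries did not overlap in CPM, although the lowest RepB-/- value, 9.14, was close to the highest WT value, 8.18, and the log2 fold change was 0.41 with an SE of 0.16. *Apba3* was at 51.4 ± 3.45 CPM in RepB-/- and 54.0 ± 3.09 CPM in WT with overlapping libraries and a log2 fold change of -0.07 (SE 0.082).

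The make-up of the Mint family differed between the genotypes accordingly. *Apba2* made up 15.3%, 17.7% and 15.1% of the summed Mint FPKM in the RepB-/- libraries and 0.755%, 0.844% and 1.51% in WT. *Apba3* made up 77.6 ± 1.03% in RepB-/- and 93.4 ± 1.06% in WT, and *Apba1* 6.40 ± 0.744% and 5.58 ± 0.843%. The summed Mint FPKM was 22.1 ± 1.65 in RepB-/- and 20.8 ± 0.611 in WT, with overlapping libraries. *Apba3* thus remained the main Mint transcript of RepB-/- MEFs, with *Apba2* in second place instead of *Apba1*.

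**Figure D2:**
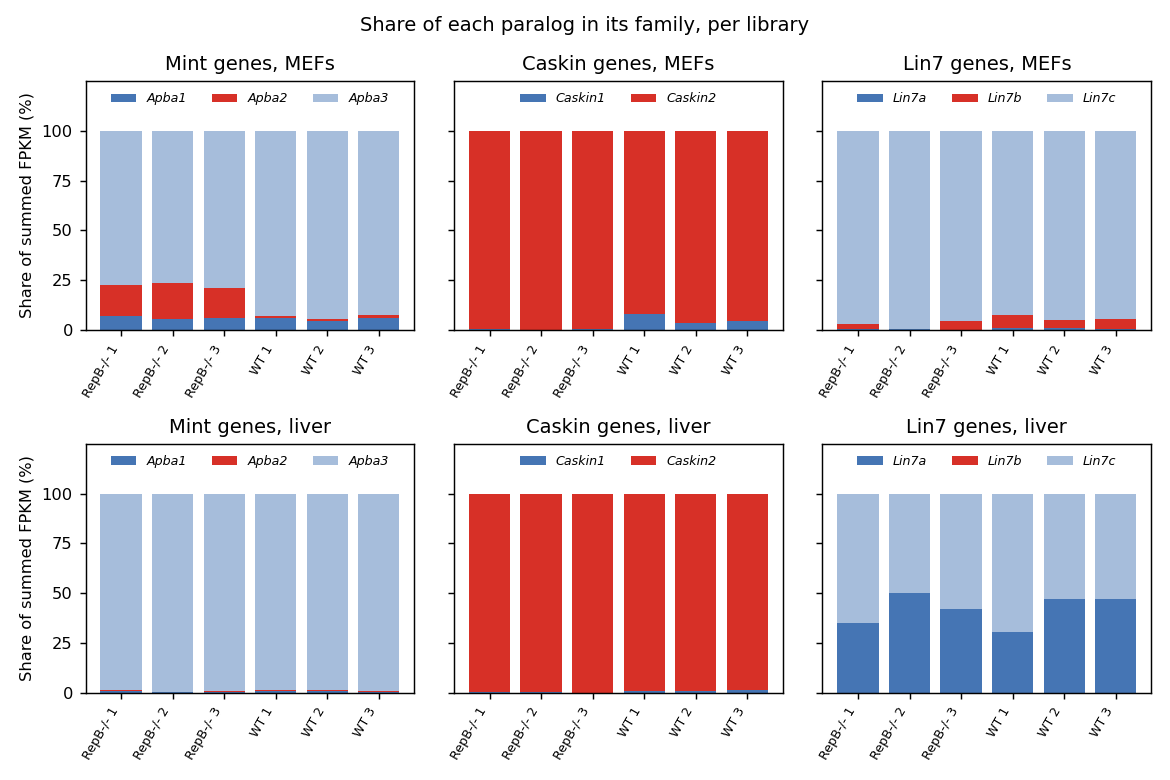
Share (%) of each paralog in the summed FPKM of the Mint, Caskin and Lin7 genes in every library of MEFs (top) and liver (bottom). *Apba2* takes 15.1% to 17.7% of the Mint sum in RepB-/- MEFs and at most 1.51% in WT, and *Lin7a* takes 30.5% to 49.9% of the Lin7 sum in liver.

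*Caskin1* had the lowest log2 fold change of the 7 members tested in MEFs. It had 4, 4 and 10 counts in RepB-/- and 79, 42 and 49 counts in WT, so the groups lay apart and the RepB-/- libraries held few reads. The level was 0.306 ± 0.174 CPM in RepB-/- and 3.95 ± 2.07 CPM in WT, 12.9 times as high in WT. The WT value rested partly on replicate 1, at 6.33 CPM against 2.60 and 2.91 in the others. The log2 fold change was -3.63 (SE 0.48), at rank 79 from the lowest of 13306, and -3.14 without that library. Its rank from the lowest was between 79 and 160 in the other edgeR fits with the filter, 1020 of 19330 genes with DESeq2 and 1320 of 19330 with no filter on low counts. As background, 19.7% of the tested genes were called lower and 25.8% were below WT without overlap. *Caskin2* was at 46.7 ± 1.53 CPM in RepB-/- and 45.5 ± 4.81 CPM in WT with a log2 fold change of 0.04 (SE 0.089), so that *Caskin1* made up 0.450 ± 0.270% of the summed Caskin FPKM in RepB-/- and 5.48 ± 2.30% in WT.

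Several things moved with *Caskin1* in MEFs, and their part in its difference was not tested. Weakly expressed genes were lower in RepB-/- in general. Of 2777 tested genes with a mean under 1 FPKM, 30.1% were called lower and 7.74% higher, with a median log2 fold change of -0.39, while of 10529 genes at 1 FPKM or more, 17.0% were called lower and 22.5% higher. The summed level of the 8 neuron markers was 3.53 to 4.36 FPKM in RepB-/- and 6.11 to 6.38 in WT, and 2 of the 4 tested were called lower. Of these, *Snap25*, *Syt1* and *Rbfox3* had means under 0.1 FPKM in both genotypes. *Elavl3* was at 0.133 FPKM in WT and 0.00949 in RepB-/-, and *Syt1* at 0.0799 and 0.0157. Both lay below WT without overlap but had too few counts to be tested. *Tubb3* (log2 fold change -0.36) and *Syn1* (-0.41) had means above 1 FPKM in both genotypes. They too lay below WT without overlap, as did 25.8% of all tested genes, but were not called. The 2 called lower were *Map2* (-1.16) and *Stmn2* (-0.81). The 6 Schwann and neural crest markers summed to 2.56 to 2.82 FPKM in RepB-/- and 5.22 to 6.96 in WT, with 4 called lower, among them *Sox10*. The 3 endothelial markers summed to 1.94 to 2.26 against 4.16 to 5.03 FPKM, with all 3 called lower. The 4 muscle markers summed to 31.5 to 36.5 against 81.3 to 120 FPKM, a difference carried by *Acta1* (25.5 against 91.9 FPKM), the only one called lower, while *Myod1*, *Myog* and *Des* were not called. Other lists were higher in RepB-/-, as *Apba2* was, and their part in its difference was not tested either. The 6 fibroblast markers summed to 1701 to 2042 FPKM in RepB-/- and 1266 to 1575 in WT, with 4 called higher and 1 lower. The 4 keratinocyte markers summed to 2.02 to 4.76 against 1.34 to 1.98 FPKM, with *Krt14* called higher and *Krt5* and *Trp63* not called. *Krt15* went the other way, with 0 counts in every RepB-/- library and 9, 8 and 4 in WT, too few to be tested. In such bulk samples, fewer cells of a type and less RNA per cell cannot be told apart.

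The Lin7 genes differed less. *Lin7c*, the abundant one, was at 57.5 ± 5.47 CPM in RepB-/- and 51.9 ± 1.37 CPM in WT MEFs with overlapping libraries and a log2 fold change of 0.15 (SE 0.084). *Lin7b* had 9, 1 and 17 counts in RepB-/- and 15, 12 and 15 in WT. These overlapped, and the log2 fold change of -1.01 (SE 0.60) moved to -0.49 without RepB-/- replicate 2, the library with 1 count, and to -1.83 without RepB-/- replicate 3. *Lin7a* had 3, 3 and 1 counts in RepB-/- and 5, 6 and 4 in WT and was removed by the filter on low counts, as the only one of the 8 genes. Its CPM values lay below WT without overlap, as did those of 24.8% of all genes with a count. *Lin7c* made up 97.3 ± 2.05% of the summed Lin7 FPKM in RepB-/- and 93.9 ± 1.35% in WT.

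**Figure D3:**
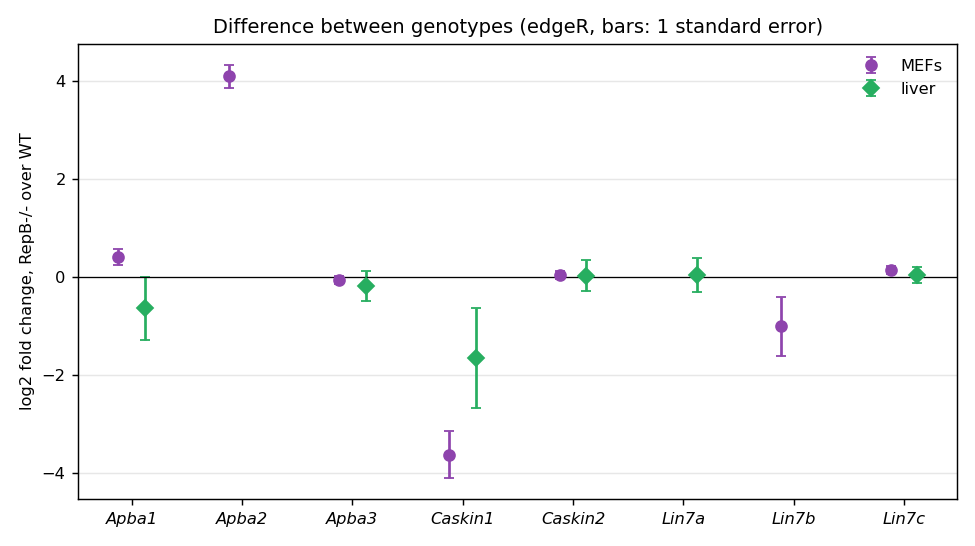
Log2 fold change of RepB-/- over WT from edgeR, with bars of 1 standard error, in MEFs (circles) and liver (diamonds), with no point for a gene that the filter on low counts removed. *Apba2* (4.11) and *Caskin1* (-3.63) stand apart in MEFs, and in liver the values lie between -1.66 and 0.05.

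The liver libraries did not enter the choice of the genes and were tested. No member was called among the 6 tested in liver, where 6 of 16080 genes (0.0373%) passed an adjusted p of 0.05 in edgeR's quasi-likelihood test, and every member had an adjusted p of 1.00. At an unadjusted p under 0.05, 0 of the 6 members and 3.12% of all genes passed, and DESeq2, which called 0.299% of all genes, also called 0 members. No member was called either when the Y-positive RepB-/- liver (replicate 2) or the livers numbered 1 were left out, and the lowest adjusted p of any member under the alternatives was 0.446. *Apba2* and *Lin7b* had too few counts to be tested. The precision in liver was low, with a biological coefficient of variation of 51.2% against 9.06% in MEFs.

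*Apba2* was barely detected in either genotype of liver. It had 6, 4 and 7 counts in RepB-/- and 7, 8 and 16 in WT, which is 0.134 ± 0.0638 and 0.234 ± 0.0939 CPM. The libraries overlapped, and a two-sided exact permutation test over the 10 splits gave p = 0.2, or 0.7 after adjustment over 7 genes. The smallest p such a test can give with 3 libraries a group is 0.1. If libraries of one number are taken as pairs, RepB-/- was below WT in 3 of 3. An exact test over these pairs gave p = 0.25, the smallest it can give. The mean in RepB-/- was below that in WT, where in MEFs it was above.

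*Caskin1* was the only member whose liver libraries did not overlap. It had 11, 2 and 0 counts in RepB-/- and 16, 9 and 13 in WT, which is 0.217, 0.0397 and 0 CPM against 0.357, 0.232 and 0.275 CPM. The highest RepB-/- value was close to the lowest WT value. The log2 fold change was -1.66 (SE 1.02, 95% interval -3.66 to 0.35, unadjusted p = 0.152 in edgeR), and the exact permutation test gave p = 0.1, the smallest possible, or 0.7 after adjustment. As background, 4.66% of the tested genes lay below WT without overlap in liver. With the replicate number as a block the log2 fold change was -2.08 (unadjusted p = 0.0815), without the RepB-/- library that carried Y-linked counts it was -1.33, and without the livers numbered 1 it was -3.32 (unadjusted p = 0.0296, adjusted p = 0.446). The direction was as in MEFs at a far lower level, 0.0289 ± 0.0228 FPKM over the 6 livers.

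The abundant members were close between genotypes in liver. *Lin7c* was at 29.7 ± 2.61 CPM in RepB-/- and 28.8 ± 0.963 CPM in WT, with a log2 fold change of 0.05 and a 95% interval of -0.27 to 0.36. *Apba3* was at 16.4 ± 5.34 and 18.7 ± 4.18 CPM (log2 fold change -0.19, interval -0.78 to 0.40). *Caskin2* was at 20.9 ± 3.54 and 20.5 ± 8.26 CPM (0.03, interval -0.59 to 0.65), and *Lin7a* at 12.5 ± 2.79 and 12.1 ± 4.49 CPM (0.05, interval -0.64 to 0.73). These intervals leave room for differences of either sign. *Apba1* had 31, 14 and 11 counts in RepB-/- and 31, 37 and 12 in WT, with a log2 fold change of -0.64 and an interval of -1.91 to 0.63. *Caskin2* was highest and *Lin7a* lowest in the liver numbered 1 of each genotype, at 24.9 and 29.7 CPM for *Caskin2* and 9.50 and 6.87 CPM for *Lin7a*, the same livers that were high in *Afp*.

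*Apba3*, *Caskin2* and *Lin7c* had the largest share of their families in both tissues. *Lin7a*, the lowest member in MEFs, was at 4.96 ± 1.25 FPKM in liver and made up 42.2 ± 7.44% of the summed Lin7 FPKM in RepB-/- and 41.6 ± 9.58% in WT. *Lin7b* had 0 counts in all 6 livers, which allows up to 3 counts or between 0.0582 and 0.0796 CPM a library, and was at 0.488 FPKM in MEFs. *Apba3* headed the order in liver as well, at 12.3 ± 2.75 FPKM in front of *Lin7c* at 6.77 ± 0.681, and the ranges of *Lin7c*, *Lin7a* and *Caskin2* (3.98 ± 1.52) overlapped from one to the next. *Apba1* (0.0707 ± 0.0421), *Apba2* (0.0472 ± 0.0256) and *Caskin1* followed with overlapping ranges. The tables of the 2 tissues were made with different gene models, and levels were therefore set side by side without a test.

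Transcripts of the proteins that bind these scaffolds moved in both directions in MEFs. Of 52 genes in 4 lists of binding partners, 43 were tested, 14 were called higher and 13 lower in RepB-/-, where 39.1% of all tested genes were called in either direction. Their median log2 fold change was -0.08, beside 0.0003 over all tested genes. The calls were unevenly spread over levels, as among all genes. By edgeR, 0 of 10 partners with a mean under 1 FPKM were called higher and 7 lower, against 14 higher and 6 lower of 33 at 1 FPKM or more. In liver, 0 of 42 tested partners were called by edgeR, and 2 had an unadjusted p under 0.05.

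*Cask*, the X-linked kinase-like scaffold at the centre of the complex, was higher in RepB-/- MEFs. It had 1423, 1341 and 1308 counts in RepB-/- and 563, 824 and 830 in WT, which is 69.4 ± 3.12 against 48.5 ± 2.99 CPM without overlap (log2 fold change 0.52, SE 0.079, edgeR adjusted p = 0.00024). In liver the level was 10.7 ± 2.40 and 11.6 ± 0.766 CPM with a log2 fold change of -0.11 (SE 0.23, edgeR adjusted p = 1.00). Of the 11 tested genes for Cask and other L27 or MAGUK scaffolds, 2 were called higher, the other being *Mpp1*, and 3 lower. Of all tested genes, 19.4% were called higher and 19.7% lower. *Mpp3*, a scaffold of that family, fell furthest, from 27, 19 and 15 counts in WT to 0, 5 and 0 in RepB-/- (log2 fold change -3.91, SE 0.78, edgeR adjusted p = 0.0015).

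Among 13 tested ligands and partners of the Mint proteins, 5 were called higher and 3 lower, beside 19.4% and 19.7% of all tested genes. Those higher included the amyloid precursor protein gene *App* (log2 fold change 0.27), its relatives *Aplp1* (0.24) and *Aplp2* (0.25), and the matrix protease gene *Mmp14* (0.31). The kinesin gene *Kif17*, whose motor carries receptor vesicles through the Mint1, Cask and Lin7 complex, fell from 30, 15 and 22 counts in WT to 3, 5 and 10 in RepB-/- (log2 fold change -2.28, SE 0.53, edgeR adjusted p = 0.0040). *Nrxn2*, a presynaptic neurexin, fell from 2.27 ± 1.18 to 0.579 ± 0.126 CPM (log2 fold change -1.93, SE 0.44, edgeR adjusted p = 0.0035). Like *Kif17*, it had a mean under 1 FPKM, a level where 30.1% of all tested genes were called lower and 7.74% higher.

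Among 12 tested membrane ligands of Cask and Lin7, 5 were called higher and 3 lower, beside 19.4% and 19.7% of all tested genes. The syndecans are heparan sulphate proteoglycans whose tails bind the PDZ domain of Cask. *Sdc1* rose from 349.7 ± 36.1 to 581.9 ± 76.9 CPM (log2 fold change 0.73, SE 0.10, edgeR adjusted p = 0.00011) and *Sdc2* from 139 ± 7.39 to 178 ± 9.58 CPM (0.36, SE 0.072, edgeR adjusted p = 0.0016). *Sdc4* was also called higher, at 0.24, and *Sdc3* was at -0.17 without a call. *Kcnj4*, an inward rectifier potassium channel that these scaffolds bind, fell from 119, 103 and 97 counts in WT to 21, 23 and 25 in RepB-/- (log2 fold change -2.60, SE 0.26, edgeR adjusted p = 1.1e-05).

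Of 7 tested partners of the Caskins and liprins, 2 were called higher and 4 lower, beside 19.4% and 19.7% of all tested genes. *Nck1*, an SH2 and SH3 adaptor, rose from 18.0 ± 3.99 to 26.5 ± 3.36 CPM (log2 fold change 0.54, SE 0.15, edgeR adjusted p = 0.0099), and *Nck2*, its paralog, was called lower at -0.66. The receptor phosphatase gene *Ptprf* was called lower at -0.91. So were the liprins *Ppfia3* at -0.96 and *Ppfia4* at -1.14, both with means under 1 FPKM, a level where 30.1% of all tested genes were called lower.

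**Figure D4:**
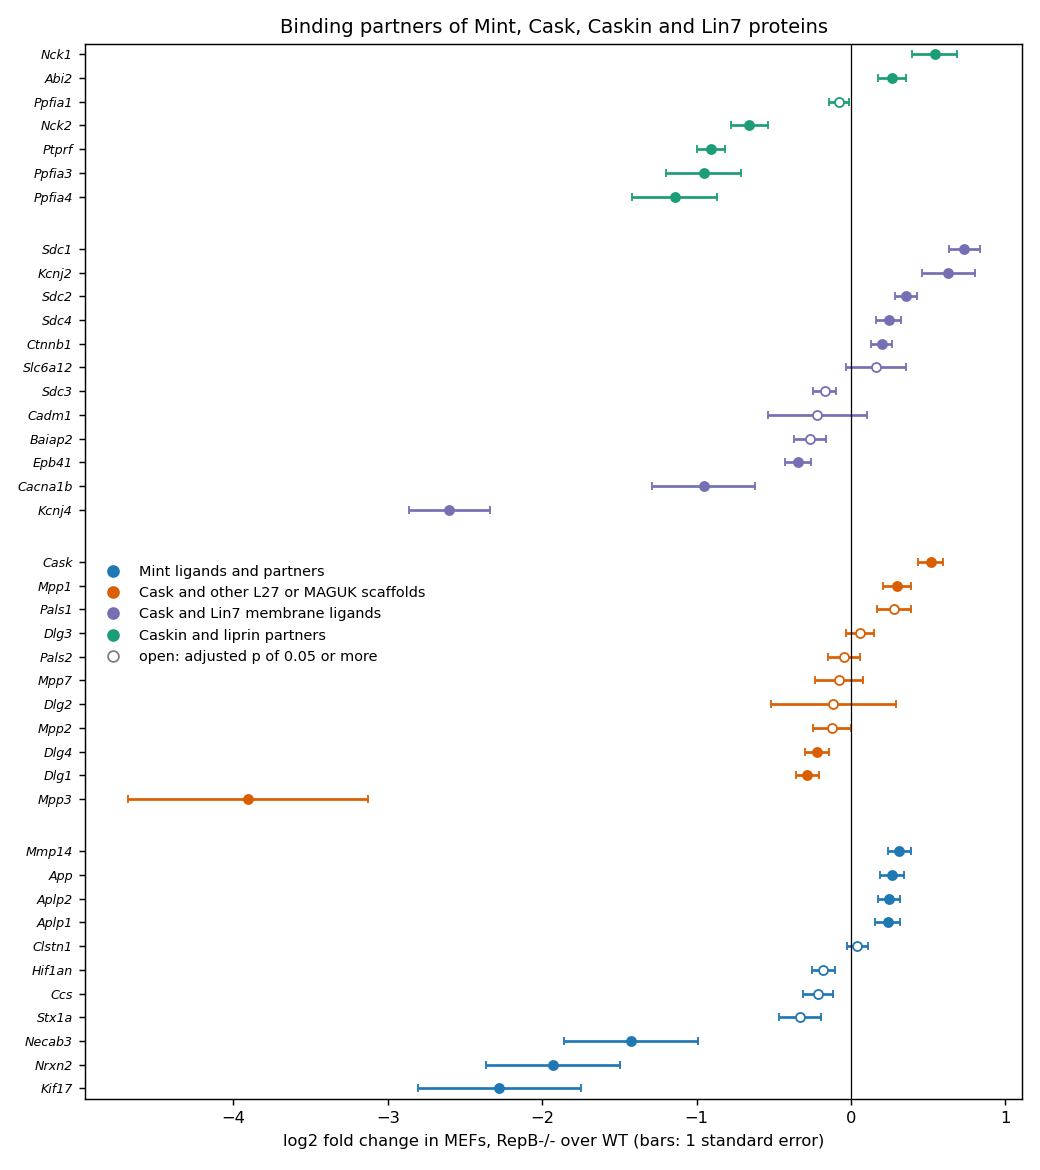
Log2 fold change of RepB-/- over WT in MEFs for tested partner genes, grouped by list, with bars of 1 standard error and open circles for an adjusted p of 0.05 or more. The genes called higher lie at 0.73 or less, and *Mpp3* (-3.91), *Kcnj4* (-2.60) and *Kif17* (-2.28) lie furthest below.

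The genes around *Apba2* and *Caskin1* were listed to see whether their differences were shared along the chromosome. Of the 10 genes nearest to *Apba2*, 5 on each side, 9 were tested, and their log2 fold changes lay between -0.65 and 0.45, far from the 4.11 of *Apba2*. Of the 9, 5 were called, beside 39.1% of all tested genes. The adjacent *Mcee*, a methylmalonyl-CoA epimerase, was at 0.10 (edgeR adjusted p = 0.660), and the adjacent *Fam189a1*, with a gap of 2.21 kb, at -0.65 (SE 0.40, edgeR adjusted p = 0.219). Farther out, the nuclease gene *Fan1* (0.39), the ribosome biogenesis gene *Mphosph10* (0.31), the tight junction scaffold gene *Tjp1* (0.31) and *Tarsl2* (0.45), a threonyl-tRNA synthetase paralog, were called higher, and *Mtmr10*, of the myotubularin family, was called lower (-0.34). For the neighbours of *Apba2* and *Caskin1* together, the 5 calls became 6 with DESeq2 size factors or with no filter, 2 with DESeq2, 3 with the replicate number as a block, and 2 or 3 when any library except WT replicate 3 was left out.

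None of the 8 tested neighbours of *Caskin1* was called by edgeR, beside 39.1% of all tested genes, or by DESeq2, 3 had an unadjusted p under 0.05 in edgeR, and their log2 fold changes lay between -0.27 and 0.47. On one side *Bricd5* had no counts. On the other side the gene for the ubiquitin ligase *Traf7* overlaps *Caskin1* by 110 bases on the opposite strand, at 17.2 FPKM, and had a log2 fold change of -0.17 (SE 0.071, edgeR adjusted p = 0.079). *Caskin2* overlaps *Tmem94* by 184 bases and *Apba3* overlaps *Tjp3* by 40, also on opposite strands. Libraries were stranded, but whether counting used the strand is not given in the sources used here, so reads in these overlaps could have been counted for either gene. *Caskin1* lies at chr17:24707575-24727645 on the plus strand in GRCm39.

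**Figure D5:**
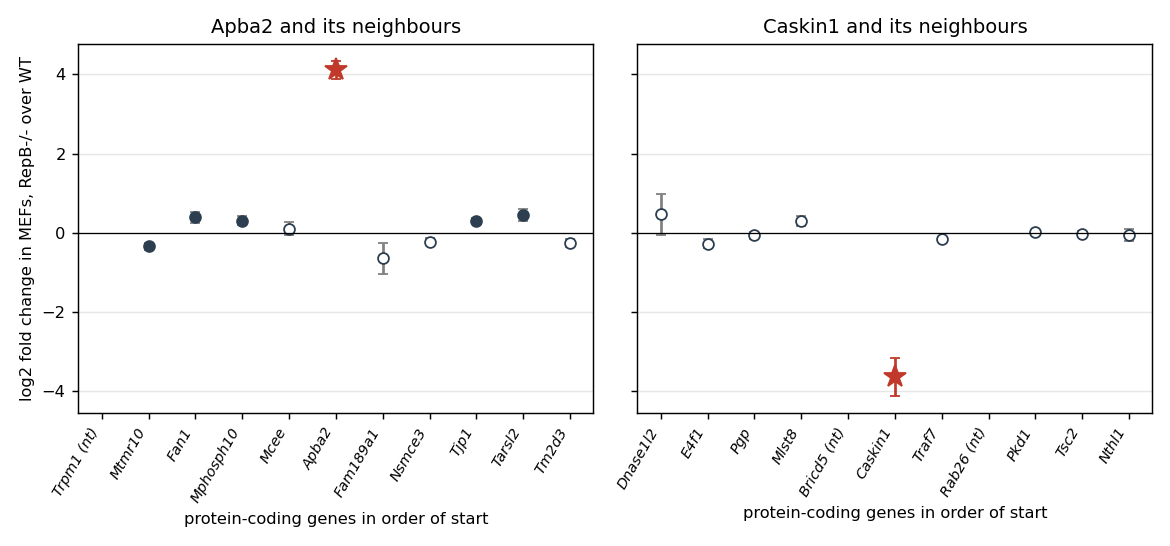
Log2 fold change of RepB-/- over WT in MEFs for *Apba2* and *Caskin1* (stars) and the 5 protein-coding genes on each side in order of position (circles, filled for an adjusted p under 0.05), with bars of 1 standard error and nt for a gene that was not tested. No neighbour lies outside -0.65 to 0.47.

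The genes with the pattern most like *Apba2* were found by Pearson's correlation of log2 CPM over the 6 MEF libraries. They were *Odr4* (r = 0.9996), the guanine deaminase gene *Gda* (0.9988) and *Il13ra1* (0.9987), a cytokine receptor gene. *Gda* was at 52.3 ± 0.653 CPM in RepB-/- and 18.0 ± 2.67 in WT, a smaller ratio than that of *Apba2*. For *Caskin1* they were the meiotic recombination gene *Msh5* (0.9995), the translation factor gene *Eif2b2* (0.9989) and *Trank1* (0.9988). *Msh5* was at 0.935 ± 0.332 CPM in RepB-/- and 6.68 ± 3.05 in WT. The 6 points fall into 2 genotypes, so any gene with a clean difference scores high, and 93 of 13305 genes exceeded 0.99 for *Apba2* and 72 for *Caskin1*.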

How the data were processed

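Counts per gene and library were read from 2 deposited tables for MEFs (21959 genes, GRCm39 coordinates) and liver (51826 genes, GRCm38 coordinates). The letter B in the labels was read as RepB-/- and W as WT. The 6 brain libraries and 6 TPM columns were not used here. The authors made stranded mRNA libraries and named Cutadapt and Hisat2, whereas their processing notes list Trim Galore 0.4.1, STAR 2.7.0 and HTSeq 0.12.4. Which made these counts is not given in the sources used here. FPKM values were taken as deposited by the authors and equal count over gene length and total counts in MEFs.

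Each tissue was fitted with edgeR 4.0.16 in R 4.3.3 (TMM, filterByExpr with its defaults, quasi-likelihood test, Benjamini-Hochberg adjusted p of 0.05 over 13306 genes in MEFs and 16080 in liver), and the scripts were tested on simulated data. SE is the log2 fold change over the square root of the test statistic, and 95% intervals are 1.96 SE to each side. CPM is counts scaled to a TMM-adjusted library of 1e6 counts. Figures and exact permutation tests used Python 3.11.15, scipy 1.17.1 and matplotlib 3.10.9. The limit given for 0 counts covers counting error only. The 95% intervals include the spread between libraries, but 1.96 SE is a normal quantile and is narrow for 3 libraries a group. Correlations used a prior count of 2.

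The members and lists were chosen with earlier results of these data known. Named genes were the 8 members, *Xist* and Y-linked genes as checks, *Cask*, the 4 largest rises and 4 largest falls among called partners without overlap, the adjacent genes of *Apba2* and *Caskin1* and any called within 5 genes, and the 3 genes most like each. Partner and marker genes named beyond this rule were chosen after their values were seen, and some partner genes are counted but not reported here by name or drawn. Marker lists not described above (immune, cholangiocyte, fetal liver and erythroid, and hepatocyte) were summed per library in both tissues. In MEFs the immune list summed to 6.58 to 7.50 FPKM in RepB-/- and 7.35 to 14.4 in WT (*Adgre1* called higher, *Cd68* called lower), the cholangiocyte list to 8.47 to 13.0 and 18.5 to 23.3 (*Krt19* called lower, *Sox9* called higher), and the hepatocyte and erythroid lists to under 1.

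To see whether replicate numbers pair the samples, deviations from the genotype means were correlated between libraries of one number. Pearson's r was 0.71, 0.36 and 0.37 in liver and -0.011, -0.042 and -0.0035 in MEFs. Deviations within a genotype depend on each other, so a difference shared by the livers numbered 1 also raises r for replicates 2 and 3. Libraries of different numbers were not correlated, so whether replicates 2 and 3 are pairs in liver was not tested. Alternatives were DESeq2 1.42.0, its size factors in edgeR, no filter, the replicate block, each library left out and, in liver, a term for the livers numbered 1. Leaving out both livers numbered 1 and the exact test over pairs were added after seeing the data.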

Additional observations from a re-analysis of the deposited data

How the results depend on the processing

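In MEFs, *Apba2* and *Caskin1* kept their direction under the 10 alternatives, with log2 fold changes of 3.94 to 4.48 and -4.19 to -3.14. *Lin7b* ranged from -1.83 to -0.49 and *Caskin2* from -0.04 to 0.11. Called genes numbered between 3956 and 6181 and called partners between 18 and 28. Calls among the neighbours of *Apba2* and *Caskin1* went from 5 to 6 with DESeq2 size factors or no filter on low counts, to 2 with DESeq2, to 3 with the replicate block, and to between 2 and 5 when each library was left out (5 without WT replicate 3). MEF libraries of one number showed no shared deviations by the correlations given in the processing.

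In liver, no member was called under any alternative listed in the processing, the replicate block included. Called genes went from 6 to 80 with DESeq2, 8 with the replicate block, 9 with a term for the livers numbered 1, 0 with no filter on low counts (762 at an unadjusted p under 0.05), 2 without both livers numbered 1, and between 0 and 4 when each library was left out (4 without WT replicate 1 and 0 without any other). The log2 fold changes of 4 members changed sign when libraries were left out, and the cause was not tested. They ranged from -0.47 to 0.0079 for *Apba3*, from -0.19 to 0.40 for *Caskin2*, from -0.23 to 0.22 for *Lin7a* and from -0.039 (without both livers numbered 1) to 0.11 for *Lin7c*. *Caskin1* stayed between -3.52 (without RepB-/- replicate 1) and -1.14 (without RepB-/- replicate 3). In MEFs, the replicate block took called genes from 5202 to 5006 and called partners from 27 to 26. Low counts limit *Apba2*, *Caskin1*, *Lin7a* and *Lin7b* in the groups where they are weak.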
